A study of Mus musculus with 12 samples.

Results

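Saa3, Lcn2, Cp, Hp, Ptx3, S100a8 and S100a9 encode acute-phase and antimicrobial proteins that leave the cell. The 7 genes were taken from the deposited table of 21899 genes by their symbols, each of which named 1 row. Cells were primary macrophages grown from the marrow of wild-type mice, sequenced as 12 libraries. The groups were PgLPS together with CS-PA/CNP (called both agents here), PgLPS alone, CS-PA/CNP alone and untreated control, with 3 libraries each. The labels expand neither abbreviation and give no dose, time, order of addition, age or sex, and do not say whether the 3 libraries of a group came from different animals or dishes. The titles mark libraries within a group as biological replicates, without saying what was replicated. The p-values therefore measure the spread between these libraries, which may not cover the spread between animals.

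In the acute-phase response, cytokines such as interleukin-6 and interleukin-1 raise the synthesis of a set of defence proteins, mostly in liver, by way of C/EBP, NF-kB and STAT3 transcription factors. Saa3 is a serum amyloid A of mice that is made outside the liver, macrophages included. Hp, haptoglobin, binds free haemoglobin, and Cp, ceruloplasmin, is a copper-carrying ferroxidase that loads iron onto transferrin. Lcn2, lipocalin 2, withholds iron from bacteria by binding their siderophores. Ptx3 is a long pentraxin that tags microbes for uptake. S100a8 and S100a9 form calprotectin, which starves microbes of zinc and manganese and is abundant in neutrophils and monocytes.

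Promoter windows are shown for 4 of the genes because Saa3 and S100a9 hold several C/EBP matches, Ptx3 the NF-kB matches, and S100a8 and S100a9 are partners encoded near each other. The RefSeq table of GRCm38.p6 held windows for 6 of the 7 genes, 250 bases before to 50 after the annotated start, with Cp given 2 windows and Hp not listed. Capitals mark the C/EBP motif TTNNGNAA on either strand, the NF-kB consensus on either strand and TATAAA on the strand of the gene. The windows lie at chr7:46715627-46715926 on the minus strand for Saa3, chr3:66219637-66219936 on the plus strand for Ptx3, chr3:90668821-90669120 on the plus strand for S100a8 and chr3:90695672-90695971 on the minus strand for S100a9, each printed along its own gene.
Saa3 promoter: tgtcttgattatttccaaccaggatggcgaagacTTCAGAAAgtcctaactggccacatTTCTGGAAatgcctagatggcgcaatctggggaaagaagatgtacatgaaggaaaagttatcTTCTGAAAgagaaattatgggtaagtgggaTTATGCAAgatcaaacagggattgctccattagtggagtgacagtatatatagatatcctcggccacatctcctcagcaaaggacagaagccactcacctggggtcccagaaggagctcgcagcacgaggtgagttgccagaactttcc
Ptx3 promoter: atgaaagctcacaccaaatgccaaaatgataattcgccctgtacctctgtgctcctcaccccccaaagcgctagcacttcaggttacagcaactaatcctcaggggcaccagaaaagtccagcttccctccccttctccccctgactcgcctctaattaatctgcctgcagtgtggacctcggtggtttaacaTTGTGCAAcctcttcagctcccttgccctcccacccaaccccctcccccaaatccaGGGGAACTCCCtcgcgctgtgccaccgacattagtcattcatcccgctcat
S100a8 promoter: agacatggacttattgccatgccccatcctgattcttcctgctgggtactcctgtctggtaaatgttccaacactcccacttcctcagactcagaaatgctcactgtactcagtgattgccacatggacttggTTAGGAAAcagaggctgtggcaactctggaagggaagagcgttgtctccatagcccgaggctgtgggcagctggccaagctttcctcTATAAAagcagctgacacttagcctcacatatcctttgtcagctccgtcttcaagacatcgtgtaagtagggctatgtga
S100a9 promoter: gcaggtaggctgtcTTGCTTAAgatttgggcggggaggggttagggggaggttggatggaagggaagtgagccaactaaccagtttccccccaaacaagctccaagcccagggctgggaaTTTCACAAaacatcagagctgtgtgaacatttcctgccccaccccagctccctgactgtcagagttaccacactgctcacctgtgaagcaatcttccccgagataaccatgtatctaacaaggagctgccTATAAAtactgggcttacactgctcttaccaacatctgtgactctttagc

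The Saa3 window held 4 C/EBP matches, the nearest of them, TTATGCAA, ending 92 bases before the start. S100a9 had 2 such matches, and Lcn2, Ptx3, S100a8 and each Cp window had 1. A C/EBP match was present in 40.7% of the 32851 windows in the table, so a single match is common. The NF-kB consensus, found in 4.51% of all windows, occurred among these genes only in Ptx3, as 2 overlapping matches at the start site. TATAAA stood in the S100a8 and S100a9 windows and in 1 Cp window, against 8.32% of all windows. In bases from the start it lay at −30 to −25 in S100a8 and −25 to −20 in Cp, but at 1 to 6 in S100a9. The STAT motif TTCNNNGAA on either strand, present in 8.3% of all windows, was in none of the windows of the 6 genes. A match describes letters and is not a measured binding site, and a missing match speaks only for these 300 bases.

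Library totals ran over 16301947 to 19422021 reads with both agents, 14992707 to 19252143 with PgLPS, 16130784 to 20082900 with CS-PA/CNP and 15570148 to 17339556 in control. Levels are given as CPM, read counts scaled by library total and TMM factor, and a comparison between genes also divides by gene length in kb. All 10 macrophage marker genes were detected in every group. Their summed level was 28383 to 29947 CPM with both agents, 28299 to 30672 with PgLPS, 23505 to 25202 with CS-PA/CNP and 20928 to 22467 in control. Most of this was Lyz2, averaging 17800 CPM with both agents, 17569 with PgLPS, 17824 with CS-PA/CNP and 15401 in control. Fcgr1, also in the sum, averaged 153 CPM in control and 1778 with PgLPS, whereas Cd68 averaged 1494 and 1199. S100a8, S100a9, Lcn2 and Ptx3 are also genes of neutrophils. The 16 granulocyte marker genes summed to 94.2 to 125 CPM with both agents, 118 to 141 with PgLPS, 83.9 to 113 with CS-PA/CNP and 101 to 117 in control. Most of this was Ngp, Ltf and Mmp8. Ngp averaged 39.5 CPM with both agents, 46.4 with PgLPS, 34.3 with CS-PA/CNP and 42.8 in control. In the same order of groups Ltf averaged 24.2, 28.0, 25.4 and 36.0 CPM, and Mmp8 39.2, 42.2, 28.2 and 18.0 CPM. In the granulocyte list 14, 16, 15 and 15 genes were detected in the same order of groups. The neutrophil surface gene Ly6g had 6 reads over the 3 libraries with both agents, 3 with PgLPS, 5 with CS-PA/CNP and 14 in control. Stfa1 was at 0 with both agents and in control, and Stfa2 with both agents and with CS-PA/CNP. Hepatocytes are the main source of acute-phase proteins in the body. Of 8 hepatocyte markers 8, 8, 7 and 6 were detected in that order of groups, and they summed to 350 to 420 CPM with both agents, 375 to 406 with PgLPS, 471 to 542 with CS-PA/CNP and 615 to 683 in control. Nearly all of this was Trf, transferrin, whereas Alb, albumin, had 54 reads over the 3 libraries with both agents, 27 with PgLPS and 9 each with CS-PA/CNP and in control. The part of such cells in the results was not tested. In bulk RNA, fewer cells of a type and less RNA per cell cannot be told apart.

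**Figure D1:**
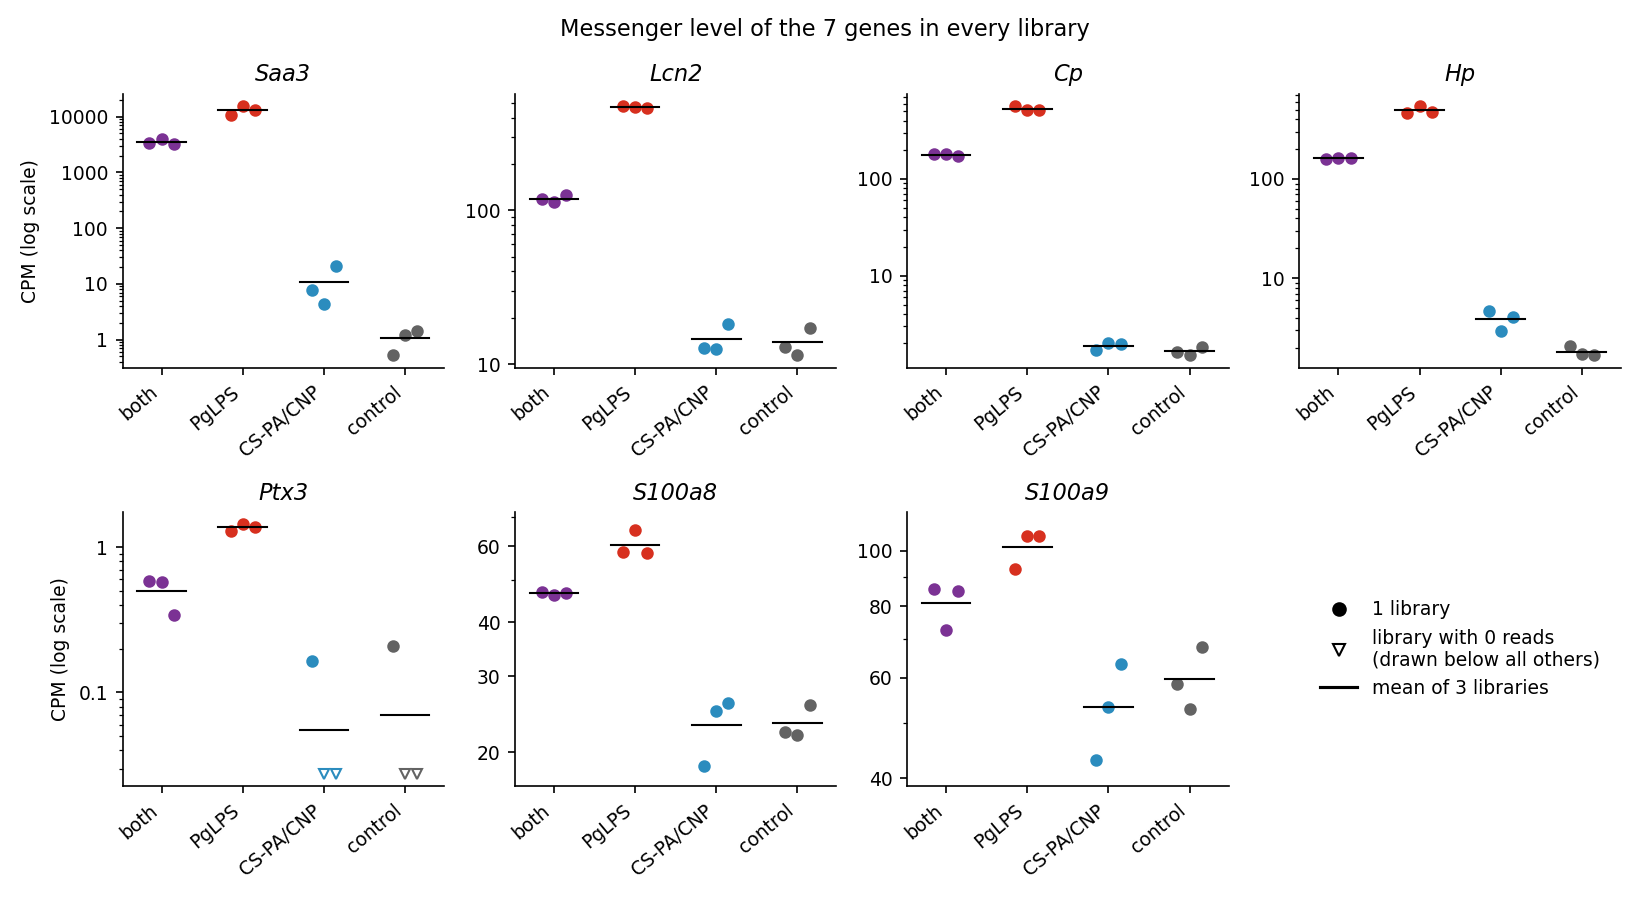
Each point is the level of 1 library in CPM on a log axis, 1 panel per gene, with both agents, PgLPS, CS-PA/CNP and control running left to right and a line at the mean of 3 libraries. Open triangles are libraries with 0 reads of Ptx3, drawn below all other points. In every panel the 3 PgLPS libraries are the highest and those with both agents come next.

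PgLPS was first set against control, to see how strongly it raised these genes. A gene is said to have risen, fallen or been called where its edgeR p, adjusted by Benjamini-Hochberg (BH) over 11656 tested genes, was under 0.05. The messengers of the acute-phase proteins Saa3, Cp and Hp rose by over 8 log2 units and that of Lcn2 by 5.09, whereas S100a8 and S100a9 rose by 1.37 and 0.77. Saa3, Lcn2, Cp, Hp, S100a8 and S100a9 rose and were higher in each PgLPS library than in any control library. Of all 11656 genes tested, 32.2% rose and 33.3% were higher with no overlap. At least 2-fold rises were called for each of these genes except S100a9, against 11.8% of all genes. Ptx3 rose too, but it passed the filter on low counts through the PgLPS libraries alone. It therefore had to be higher there and is not read against these shares. The 7 genes, Ptx3 included, had a median log2 fold change of 5.09, and all tested genes one of −0.00.

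Saa3 (ENSMUSG00000040026, chromosome 7) stood at 10896, 15566 and 12949 CPM in PgLPS libraries 1, 2 and 3, against 0.524, 1.21 and 1.45 CPM in control libraries 1, 2 and 3. Among all genes it was the third by reads in each PgLPS library, where 0.953% to 1.33% of all reads were Saa3, whereas in control only 10 to 26 reads per library were. Its log2 change of 13.59 ± 0.44 (SE; edgeR, BH-adjusted p = 2.02e-15) was second among the rises of all genes tested. Cp (ENSMUSG00000003617, chromosome 3) stood at 568, 514 and 518 CPM with PgLPS, against 1.62, 1.51 and 1.85 CPM in control. The log2 fold change was 8.33 ± 0.09 (edgeR adjusted p = 3.47e-21), and the libraries within each group lay close together. Hp (ENSMUSG00000031722, chromosome 8) behaved much the same at 465, 543 and 473 CPM with PgLPS, against 2.10, 1.71 and 1.68 CPM in control, a log2 change of 8.07 ± 0.13 (edgeR adjusted p = 6.11e-20). Saa3 and Hp were lowest in PgLPS library 1 and Cp highest there. That library also held 65.3 CPM of summed stromal markers, against 15.1 and 6.78 CPM in PgLPS libraries 2 and 3, and the part of stromal cells was not tested; without it the log2 fold changes were 13.71 for Saa3, 8.28 for Cp and 8.11 for Hp.

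Lcn2 (ENSMUSG00000026822, chromosome 2), the siderophore binder, already had 227 to 306 reads in each control library, whose cell source was not tested. It stood at 477, 471 and 462 CPM with PgLPS, against 12.9, 11.4 and 17.1 CPM in control, a log2 change of 5.09 ± 0.13 (edgeR adjusted p = 6.8e-17). Ptx3 (ENSMUSG00000027832, chromosome 3), the pentraxin, was rare throughout, with 17, 22 and 23 reads with PgLPS, against 4, 0 and 0 reads in control. The summed levels had a ratio of 19.5, with a 95% counting interval of 7.25 to 73.8 that covers counting error only. The fitted log2 fold change was 4.15 ± 0.76 (edgeR adjusted p = 0.000104). All 4 control reads came from library 1, without which the fitted value was 7.56 against a group at 0 reads and is no bound.

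S100a8 (ENSMUSG00000056054, chromosome 3) and S100a9 (ENSMUSG00000056071, chromosome 3), the calprotectin subunits, had the smallest rises of the 7 genes. S100a8 stood at 58.1, 65.4 and 57.9 CPM with PgLPS, against 22.3, 22.0 and 25.7 CPM in control, a log2 change of 1.37 ± 0.11 (edgeR adjusted p = 1.27e-09). S100a9 stood at 92.9, 106 and 106 CPM with PgLPS, against 58.4, 52.9 and 67.9 CPM in control, a log2 change of 0.77 ± 0.12 (edgeR adjusted p = 1.22e-05). Scaled by library totals in place of TMM, S100a9 had 0.35 and was still called (edgeR adjusted p = 0.0104). On that scale all genes had a median of −0.42, and 21.8% of calls were rises, against 50.5% with TMM. Of the 16 granulocyte markers 10 were tested in this comparison, and 3 rose (Camp by 1.11, Mmp8 by 1.23 and Cebpe by 1.35). Retnlg fell by 2.02 and 6, Ngp and Ltf among them, were not called. The share that rose lay near that of all genes, of which 32.2% rose and 31.6% fell. These markers are named to complete the count. Their part in the rises of S100a8 and S100a9 was not tested.

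**Figure D2:**
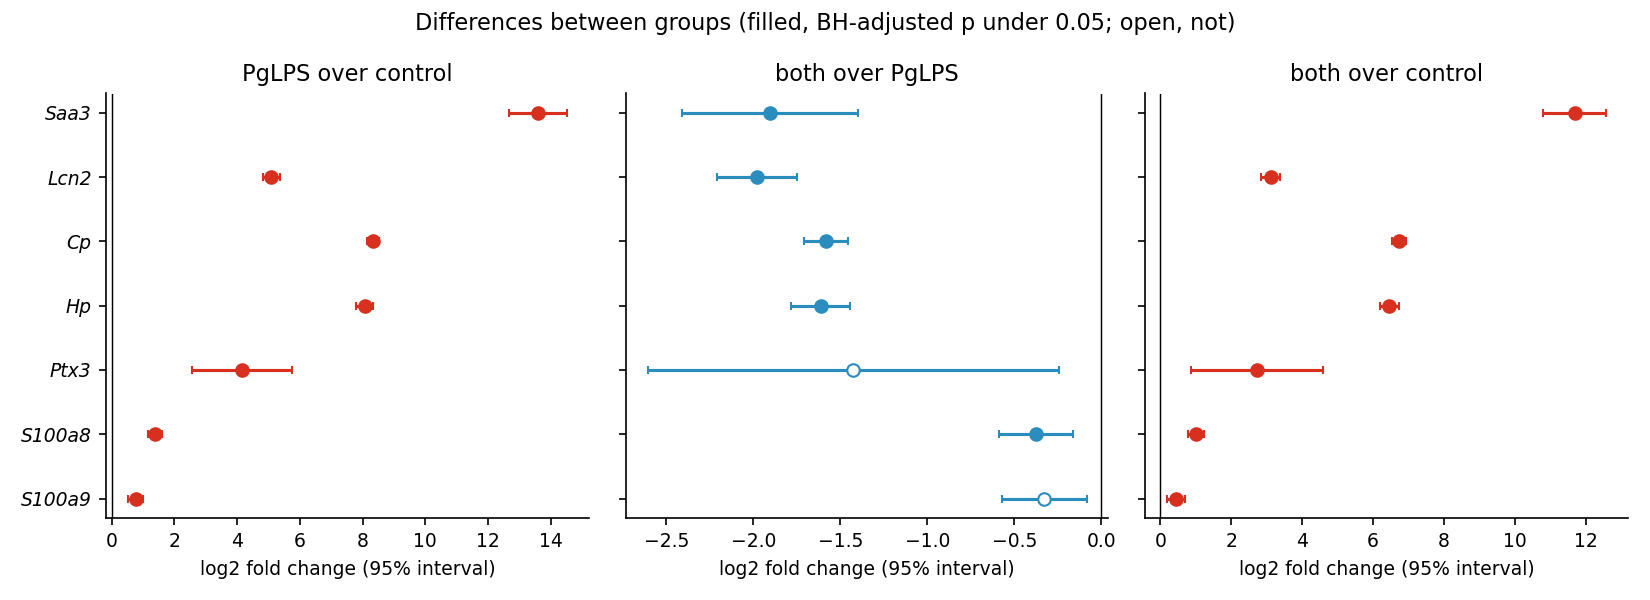
Each point is a log2 fold change with its 95% interval from the edgeR fit, for PgLPS over control, both agents over PgLPS and both agents over control (left to right; the axes differ). Filled points passed an adjusted p of 0.05. The rises over control spread from 0.77 for S100a9 to 13.59 for Saa3, whereas both agents over PgLPS gave −1.98 to −0.33.

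Both agents were next set against PgLPS, to see what CS-PA/CNP changed in macrophages that were also given PgLPS. Lcn2, Saa3, Hp and Cp fell to between 25.4% and 33.4% of their PgLPS level, and S100a8 fell to 77.1%. Of the 7 genes 5 fell, 4 of them at least 2-fold, whereas 10% of all genes fell and 1.74% fell at least 2-fold. Saa3, Lcn2, Cp, Hp, S100a8 and S100a9 were lower in each library with both agents than in any PgLPS library, which held for 16.4% of all genes. Ptx3 was too, but having passed the filter through PgLPS alone it had to be, and it is not read against that share. The 7 genes, Ptx3 included, had a median log2 fold change of −1.58, and all tested genes one of −0.01.

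Among the acute-phase proteins, Saa3 stood at 3348, 3930 and 3272 CPM with both agents, against 10896 to 15566 CPM with PgLPS. It was still among the 23 genes with most reads in each of the libraries with both agents. The log2 fold change was −1.90 ± 0.24 (edgeR adjusted p = 1.05e-05), with a 95% interval of −2.41 to −1.40. Hp stood at 159.9, 163 and 162 CPM with both agents, against 465 to 543 CPM with PgLPS, a log2 change of −1.61 ± 0.08 (edgeR adjusted p = 8.59e-11). Cp stood at 181, 182 and 173 CPM with both agents, against 514 to 568 CPM with PgLPS, a log2 change of −1.58 ± 0.06 (edgeR adjusted p = 2.11e-12). Hp and Cp, the haemoglobin binder and the ferroxidase, thus kept nearly the same fraction of their PgLPS level, 32.7% and 33.4%. Lcn2 stood at 118, 114 and 125 CPM with both agents, against 462 to 477 CPM with PgLPS. Its log2 change of −1.98 ± 0.11 (edgeR adjusted p = 2.79e-10) had a 95% interval of −2.21 to −1.75.

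The calprotectin genes had smaller differences. S100a8 stood at 47.0, 46.2 and 46.7 CPM with both agents, against 57.9 to 65.4 CPM with PgLPS, a log2 change of −0.37 ± 0.10 (edgeR adjusted p = 0.013). S100a9 stood at 85.9, 72.6 and 85.0 CPM with both agents, against 92.9 to 106 CPM with PgLPS, a log2 change of −0.33 ± 0.12. That value missed the threshold (edgeR adjusted p = 0.0548, 0.00449 to 0.171 across alternatives), and 5 of 12 alternatives called it. Ptx3 had 9, 10 and 5 reads with both agents, against 17, 22 and 23 reads with PgLPS, a ratio of 0.370 with a counting interval of 0.221 to 0.601. Its log2 change of −1.43 ± 0.56 was not called (edgeR adjusted p = 0.0871, 0.0301 to 0.236 across alternatives). That the libraries did not overlap was set by the filter and adds nothing. The call was made with only these groups in the fit (edgeR adjusted p = 0.0301).

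CS-PA/CNP was then compared with control to see what it changed without PgLPS. Saa3 and Hp rose and the other 5 genes were not called. Of all genes, 6.67% rose, 0.918% rose at least 2-fold, as Saa3 and Hp did, and 15.9% were higher with no overlap. Over the 7 genes the median log2 fold change was 0.09, and over all tested genes 0.00. Saa3 stood at 7.90, 4.32 and 20.5 CPM with CS-PA/CNP, from 143, 80 and 459 reads, against 0.524, 1.21 and 1.45 CPM in control, from 10, 24 and 26 reads. The log2 fold change was 3.40 ± 0.52 (edgeR adjusted p = 0.000137), and 2.51 without CS-PA/CNP library 3 (edgeR adjusted p = 7.41e-05). That library was also the highest of its group in Lcn2, S100a8, S100a9, Il1b and the summed granulocyte markers, whose part in the Saa3 value was not tested. Hp stood at 4.70, 2.91 and 4.07 CPM with CS-PA/CNP, against 2.10, 1.71 and 1.68 CPM in control, a log2 change of 1.09 ± 0.18 (edgeR adjusted p = 0.000319). For both genes the groups did not overlap.

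The remaining genes overlapped between CS-PA/CNP and control. Lcn2 stood at 12.8, 12.6 and 18.3 CPM with CS-PA/CNP, against 12.9, 11.4 and 17.1 CPM in control, a log2 change of 0.09 ± 0.14 (edgeR adjusted p = 0.751). Cp stood at 1.71, 2.0 and 1.97 CPM with CS-PA/CNP, against 1.62, 1.51 and 1.85 CPM in control, a log2 change of 0.20 ± 0.16 (edgeR adjusted p = 0.606). Neither value passed the threshold. S100a8 stood at 18.6, 25.0 and 26.0 CPM with CS-PA/CNP, against 22.3, 22.0 and 25.7 CPM in control, a log2 change of −0.01 ± 0.11 (edgeR adjusted p = 0.983). S100a9 stood at 43.0, 53.3 and 63.3 CPM with CS-PA/CNP, against 58.4, 52.9 and 67.9 CPM in control, a log2 change of −0.16 ± 0.12 (edgeR adjusted p = 0.445). Ptx3 had 3, 0 and 0 reads with CS-PA/CNP, against 4, 0 and 0 reads in control, too few to give a fold.

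Whether CS-PA/CNP acted differently with and without PgLPS was tested by the interaction, the log2 fold change of both agents over PgLPS minus that of CS-PA/CNP over control. It was below 0 and called for Saa3 at −5.30 ± 0.55 (edgeR adjusted p = 1.08e-06), Hp at −2.70 ± 0.19 (edgeR adjusted p = 9.68e-09), Lcn2 at −2.07 ± 0.18 (edgeR adjusted p = 8.47e-08) and Cp at −1.78 ± 0.17 (edgeR adjusted p = 3.7e-07). These are 4 of the 7 genes, whereas the interaction was called below 0 for 8.34% and above 0 for 7.46% of all genes. Saa3 and Hp moved in opposite directions, up with CS-PA/CNP alone and down when PgLPS was present. For Lcn2 and Cp, only the fall in the presence of PgLPS passed the threshold. S100a8 had an interaction of −0.37 ± 0.15 (edgeR adjusted p = 0.113, 0.0136 to 0.337 across alternatives), which was called without CS-PA/CNP library 1 (edgeR adjusted p = 0.0136) and with a replicate block. S100a9 at −0.16 ± 0.16 (edgeR adjusted p = 0.596) and Ptx3 at −1.01 ± 1.68 (edgeR adjusted p = 0.772) were not called. The comparisons in the interaction share no libraries.

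**Figure D3:**
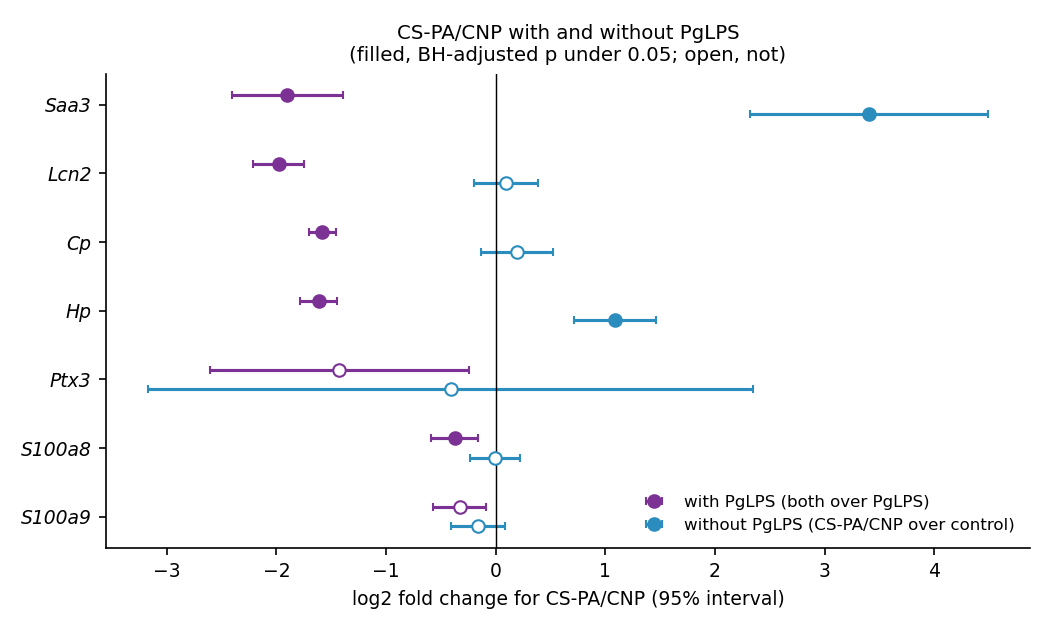
Each pair of points is the log2 fold change that CS-PA/CNP gave in 1 gene with PgLPS (both agents over PgLPS, upper) and without it (CS-PA/CNP over control, lower), with 95% intervals from the edgeR fit; filled points passed an adjusted p of 0.05. For Saa3 the pair lies at −1.90 and 3.40, on opposite sides of 0, as does that of Hp at −1.61 and 1.09.

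With both agents every one of the 7 genes remained above control. All 7 rose and did not overlap with control, whereas 29.7% of all genes rose, 28.4% fell and 31.7% were higher with no overlap. Over the 7 genes the median log2 fold change was 3.11, and over all tested genes −0.01. The largest were 11.69 ± 0.42 for Saa3 (edgeR adjusted p = 1.74e-14), 6.75 ± 0.09 for Cp (edgeR adjusted p = 2.49e-20) and 6.46 ± 0.13 for Hp (edgeR adjusted p = 1.38e-18). Lcn2, at 3.11 ± 0.13 (edgeR adjusted p = 1.02e-13), came next. S100a8 had 0.999 ± 0.107 (edgeR adjusted p = 1.64e-07), or 0.64 with library totals. S100a9 had 0.44 ± 0.12 (edgeR adjusted p = 0.00335), and with library totals 0.08 and no call (edgeR adjusted p = 0.553). Ptx3 had 24 reads with both agents, against 4 in control, a ratio of 7.21 with a counting interval of 2.48 to 28.6. Its fitted log2 fold change of 2.73 ± 0.89 (edgeR adjusted p = 0.0136, 0.0025 to 0.0613 across alternatives) was not called without control library 2 (edgeR adjusted p = 0.0613) or control library 3 (edgeR adjusted p = 0.0568), and was 6.14 without control library 1.

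Divided by the deposited gene length, the order of the 7 genes changed between groups. These lengths run from 522 bases for S100a9 to 9566 for Cp, and how they were derived was left unstated. The order between genes therefore holds only for these lengths, whereas the order of groups within a gene does not depend on them. With both agents the mean levels per kb were 1349 CPM for Saa3, 155 for S100a9, 101 for Hp, 67.2 for S100a8, 45.5 for Lcn2, 18.6 for Cp and 0.187 for Ptx3, and no neighbours in that order overlapped. With PgLPS, Saa3 led at 5041 CPM per kb, followed by Hp at 307, S100a9 at 195, Lcn2 at 179, S100a8 at 87.1, Cp at 55.7 and Ptx3 at 0.510, and only S100a9 and Lcn2 overlapped. S100a9 led at 102 CPM per kb with CS-PA/CNP and 115 in control, with S100a8 second at 33.4 and 33.6. Lcn2 came next in both, at 5.56 CPM per kb with CS-PA/CNP and 5.27 in control. Saa3 and Hp followed with CS-PA/CNP at 4.19 and 2.42 CPM per kb, where Saa3 overlapped both Lcn2 and Hp, whereas in control Hp at 1.14 lay above Saa3 at 0.408. Within each gene the groups ran PgLPS, then both agents, then CS-PA/CNP and control, and these last groups overlapped for every gene except Saa3 and Hp.

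The calprotectin subunits are secreted as a complex, so the ratio of their messengers was followed as well. S100a8 over S100a9, per base of gene length, was 0.411, 0.479 and 0.414 with both agents, 0.471, 0.463 and 0.411 with PgLPS, 0.324, 0.353 and 0.309 with CS-PA/CNP, and 0.287, 0.312 and 0.285 in control. The ratio was higher in every PgLPS library than in any control library, with means of 0.448 ± 0.032 with PgLPS and 0.295 ± 0.015 in control (SD, n = 3 each). An exact 2-sided permutation test gave p = 0.1, the smallest that 3 libraries against 3 allow, and a BH-adjusted p of 0.2 over 4 comparisons. Both agents against control gave the same values. CS-PA/CNP against control gave an exact permutation p of 0.2, and both agents against PgLPS, which overlapped, an exact permutation p of 1. The ratio needs no scaling between libraries.

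**Figure D4:**
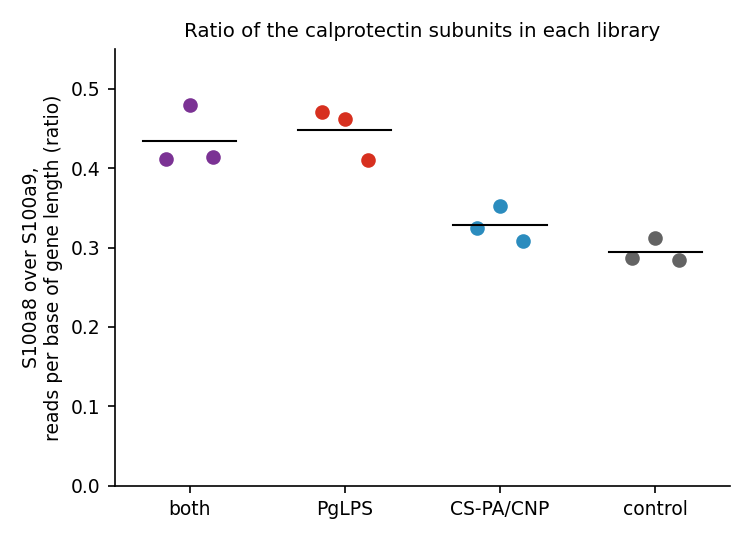
Each point is the ratio of S100a8 to S100a9 reads per base of gene length in 1 library, with lines at the means of 3 libraries, for both agents, PgLPS, CS-PA/CNP and control from left to right. The libraries with PgLPS, alone or together with CS-PA/CNP, lie between 0.411 and 0.479, above the other 6 at 0.285 to 0.353.

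Among the inducers of these proteins, Il6 and Il1b and several of the transcription factors had lower levels with both agents than with PgLPS alone. The list of inducers and transcription factors (27 listed) also holds cytokine receptor genes and the negative regulators Socs3 and Zc3h12a. Of its 25 tested genes, 20 fell, 2 rose (10% of all genes fell and 9.42% rose) and 3 were not called. The median was −0.59 against −0.01 for all genes. Il6, the interleukin-6 gene, stood at 5.56 ± 1.1 CPM with both agents and 46.0 ± 4.59 CPM with PgLPS (SD, n = 3 each), a log2 change of −3.06 ± 0.16 (edgeR adjusted p = 1.51e-10). Il1b averaged 499 ± 27.7 CPM with both agents and 3064 ± 105 CPM with PgLPS, a log2 change of −2.62 ± 0.12 (edgeR adjusted p = 5.01e-11), and Il1a had −2.41 ± 0.11. The C/EBP genes Cebpb and Cebpd, which encode activators of acute-phase promoters, had −1.16 ± 0.23 (edgeR adjusted p = 0.00114) and −0.59 ± 0.09 (edgeR adjusted p = 0.00011). Nfkbiz, an NF-kB cofactor known to act at the Lcn2 promoter, had −0.45 ± 0.08, and Stat3 −0.52 ± 0.06, both called. The risers were Cebpa and the receptor subunit gene Il6st, named here after their values were seen. With PgLPS against control, 23 of the 25 rose and 2 fell (32.2% of all genes rose and 31.6% fell), among the risers Il1b at 12.69, Socs3 at 9.45 and Nfkbiz at 3.45. Il6 and Csf3, also risers, averaged at most 0.250 CPM in either group without PgLPS. They passed the filter only through libraries given PgLPS and are not read against these shares. With CS-PA/CNP against control 8 rose and none fell (6.67% of all genes rose and 5.61% fell), and 17 were not called: Il1b had 2.82 (2.21, 2.37 and 4.96 CPM with CS-PA/CNP, against 0.105, 0.754 and 0.504 CPM in control), Socs3 2.18, Bcl3 1.17 and Cebpd 0.69, whereas Il6 had 2.62 and was not called (edgeR adjusted p = 0.0559).

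Of the other acute-phase genes, 12 of 30 listed were tested. Of these, 7 fell, none rose and 5 were not called with both agents against PgLPS, with a median of −0.79, whereas 10% of all genes fell and 9.42% rose. Saa1, among the 7, passed the filter through PgLPS alone, so its fall is not read against these shares. C3, the central complement component, averaged 602 ± 14.2 CPM with both agents and 956 ± 20.9 CPM with PgLPS, a log2 change of −0.67 ± 0.06 (edgeR adjusted p = 1.97e-07). Cd14, the lipopolysaccharide co-receptor that also circulates in soluble form, had −1.12 ± 0.07 (edgeR adjusted p = 9.33e-10). Fn1, fibronectin, had −0.91 ± 0.18 and −0.56 without PgLPS library 1, the one with most stromal marker reads. In the PgLPS against control comparison 7 of the 12 rose and 2 fell (32.2% and 31.6% of all genes), with C3 at 5.34 and Cd14 at 2.77, and with CS-PA/CNP against control C3 rose by 0.73 and Fn1 fell by 0.97. Of the risers with PgLPS, Saa1, Cfb, Serpina3g, Serpina3f and Orm1 averaged at most 0.132 CPM in either group without PgLPS. They passed the filter only through libraries given PgLPS, which favoured a rise, and are not read against these shares. Saa1, a liver serum amyloid A, had 14 reads with both agents, 70 with PgLPS and none in the other groups, at least 29.4-fold higher with PgLPS than in control by a floor of 3 reads per group. Reads that match more than 1 serum amyloid gene could be lost or assigned either way by the counting, whose settings are not given, so Saa1 is uncertain. Saa3 had far more reads than Saa1.

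Of the other antimicrobial secreted genes, 18 of 23 were tested, and 6 fell (10% of all genes) and 12 were not called with both agents against PgLPS. Those that fell were the whey acidic protein genes Wfdc17 (−1.43 ± 0.10) and Wfdc21 (−2.38 ± 0.34), the gelatinase Mmp9 (−0.42 ± 0.09), and Chil3, Chil1 and Cxcl9, which are named to complete the count. With PgLPS against control 11 rose (32.2% of all genes) and none fell. Among the risers were Cxcl10, whose chemokine can also kill bacteria, at 9.11, and Wfdc17 at 4.54. Cxcl9 and Wfdc18, also risers, averaged at most 0.127 CPM in either group without PgLPS. They passed the filter only through libraries given PgLPS and are not read against that share. With library totals 9 rose and 3 fell. With CS-PA/CNP against control 4 rose and 2 fell (6.67% and 5.61% of all genes). Slpi, a secreted inhibitor of neutrophil proteases, had 3.38 there (5.51 without control library 1), Mmp8 0.65 and the lysozyme gene Lyz2 0.21, a call lost without either control library 1 or 2 or CS-PA/CNP library 3.

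Receptors and partners of the 7 proteins went both ways. Of 20 tested genes of 22 listed, 8 fell and 5 rose with both agents against PgLPS, whereas 10% of all genes fell and 9.42% rose. Tlr2, a Toll-like receptor, had −1.01 ± 0.06 (edgeR adjusted p = 4e-10), the inhibitory Fc receptor gene Fcgr2b −1.61 ± 0.06, and Cd163, the receptor for haptoglobin bound to haemoglobin, 11.2 ± 1.1 CPM with both agents and 16.8 ± 3.56 CPM with PgLPS (log2 fold change −0.58, edgeR adjusted p = 0.0108; named after its value was seen). Slc40a1, ferroportin, the iron exporter for which ceruloplasmin oxidises iron, rose to 152 ± 5.97 CPM with both agents, against 55.1 ± 3.99 CPM with PgLPS, by 1.46 ± 0.09 (edgeR adjusted p = 1.26e-09). It also belongs to the iron handling list, where 6 of 14 tested genes (15 listed) rose (9.42% of all genes) and none fell in this comparison. Tfrc, the transferrin receptor, had 0.96 ± 0.10 and the ferrireductase Steap3 0.79 ± 0.09. With PgLPS against control 11 of the 20 receptor genes rose (32.2% of all genes) and 6 fell, a share near the 31.6% of all genes, with the formyl peptide receptor Fpr1 at 8.24 and Fpr2, which also binds serum amyloid A, at 7.96. In the same comparison 6 of the 14 iron genes rose and 6 fell, beside those same shares of all genes, with Fth1, ferritin heavy chain, at 1.48 and Slc40a1 at −1.82. With CS-PA/CNP against control 6 receptor genes rose and none fell, Tlr2 at 0.91 among them, and 6 iron genes rose and 1 fell (6.67% of all genes rose and 5.61% fell), with Hmox1, haem oxygenase, at 0.67 and Fth1 at 0.64. Of the receptor genes in that comparison, 2 fell by DESeq2, 2 with library totals and 1 with DESeq2 size factors.

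**Figure D5:**
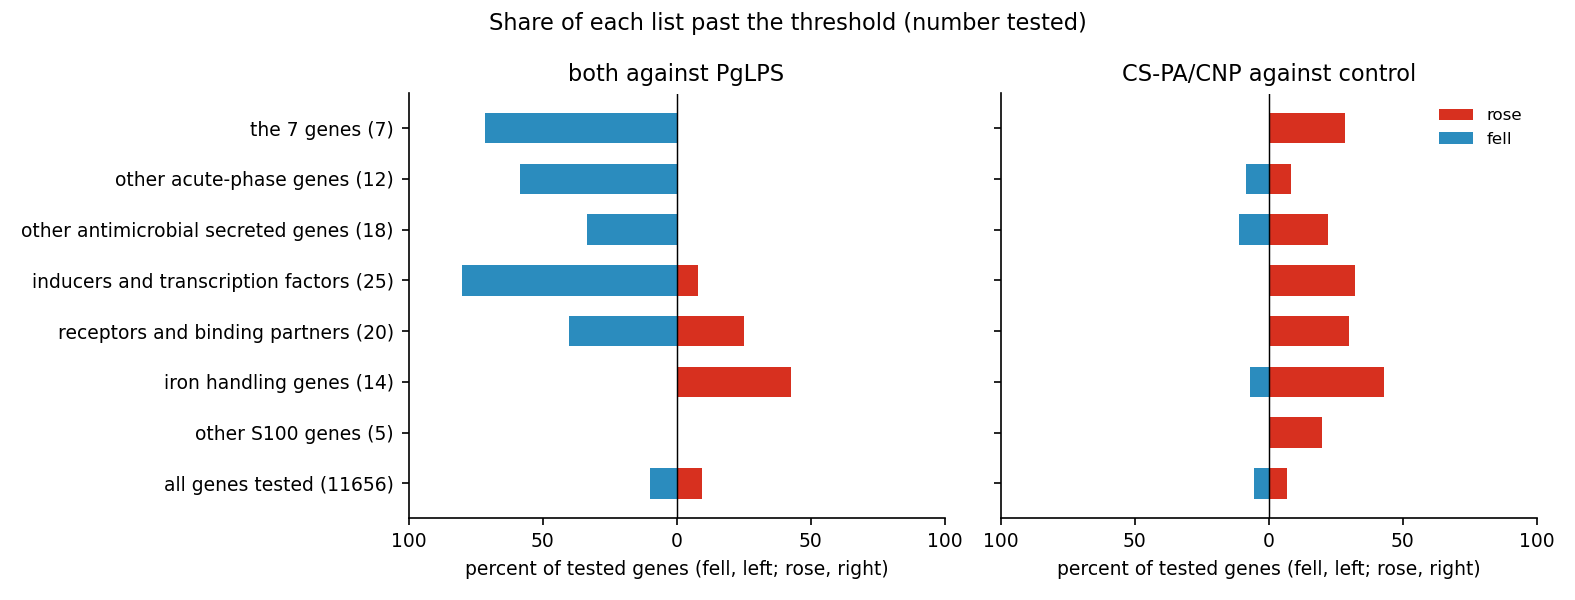
Bars give the percent of tested genes of each list that rose (right of 0) or fell (left of 0) at an adjusted p of 0.05, for both agents against PgLPS and CS-PA/CNP against control, with the number tested beside each name. Of the 25 inducers and transcription factors 20 fell with both agents against PgLPS, and of the 14 iron handling genes 6 rose and none fell, whereas of all genes 10% fell and 9.42% rose.

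The genes whose levels followed each of the 7 most closely over the 12 libraries were found by the root-mean-square distance between centred log2 CPM profiles. For Saa3 these were the chemokine gene Ccl5 at 0.69 log2 units, Il1b at 0.71 and Gbp5 at 1.17. Lcn2 lay nearest to Wfdc17 at 0.31, and the interleukin-12 subunit genes Il12a at 0.36 and Il12b at 0.37. Hp and Cp had the same nearest gene, Cd38, a NAD-consuming ectoenzyme, at 0.30 and 0.35; next came Upp1 and Ms4a4a for Hp, and Lox and Il1a for Cp. Ptx3 lay nearest to Tnfrsf8, Glipr2 and Syt7, at 0.38 to 0.42. The small changes of S100a8 were matched by Kremen1, Tmem219 and Sqor, at 0.12 each, and those of S100a9 by Coq10b, Nln and Trip4, at 0.13 to 0.15. All libraries of a group enter such a distance together, so it describes mainly the 4 group means.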

How the data were processed

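Messenger RNA of 12 libraries was measured by sequencing. The values used are whole-number read counts per gene, as deposited by the authors, not normalized. Another 12 per-sample columns of the deposited table, FPKM values, were not used. The submitters' processing notes name HTSeq 0.9.1, HISAT2 2.0.5, DESeq 1.30.0 and cutadapt 1.15 without giving roles. Genome build, annotation and strandedness: not given in the sources used here. Coordinates of genes are therefore left out, and overlapping or antisense genes cannot be separated. Count columns were read as groups by their letters (LM both agents, L PgLPS, M CS-PA/CNP, C control), and library numbers are those of the columns.

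Counts were tested with edgeR 4.0.16 in R 4.3.3 (quasi-likelihood, TMM, filterByExpr by group), all 12 libraries in 1 fit with a mean per group. The filter kept 11656 genes with 99.97% of the reads, including all 7 described. Adjusted p-values are 2-sided Benjamini-Hochberg (BH) values over those genes with a threshold of 0.05. Errors of fold changes are standard errors of that fit. TMM factors were 0.890 to 0.901 with both agents, 0.853 to 0.875 with PgLPS, 1.11 to 1.12 with CS-PA/CNP and 1.15 to 1.16 in control. A floor of 3 reads per group equals 0.0508 to 0.0664 CPM. Intervals of ratios and floors cover counting error only, because amplified reads carry no molecular identifiers and are not independent.

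The 7 genes and all lists were chosen with earlier results of these data known. Named list genes are up to 3 per list and comparison with the smallest adjusted p, plus Il6, Il1b, Cebpb, Cebpd, Nfkbiz and Stat3, and the 3 nearest profiles per gene. Alternatives were DESeq2 1.42.0, its size factors, library totals, no filter, only the compared groups, a replicate block and leaving out each library. The fit was tested on simulated data.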

Additional observations from a re-analysis of the deposited data

Results flagged for a closer look

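The difference that CS-PA/CNP made depended on the presence of PgLPS in 4 of the 7 genes, as tested by the interaction in the edgeR fit. Its log2 values were −5.30 for Saa3, −2.70 for Hp, −2.07 for Lcn2 and −1.78 for Cp. Saa3 and Hp were lower with CS-PA/CNP in PgLPS-treated cells and higher with it in cells without PgLPS. Over 17 alternatives each the Saa3 value ran from −5.66 to −4.41, that of Hp from −2.85 to −2.54, that of Lcn2 from −2.23 to −1.85 and that of Cp from −1.84 to −1.68, and the calls were kept in all of them.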

How the results depend on the processing

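Of 453 alternative values of the 7 genes, 434 kept direction and side of the threshold and 11 changed the call. The sign of 8 changed when 1 library was left out, each of them not called before or after: over libraries left out, CS-PA/CNP against control lay at −0.12 to 0.26 for Lcn2, −0.11 to 0.12 for S100a8 and −3.43 to 3.01 for Ptx3, and the Ptx3 interaction at −4.43 to 2.02, with at most 4 reads of Ptx3 per library in CS-PA/CNP and control. Without CS-PA/CNP library 3 CS-PA/CNP against control had 949 genes called, against 1431 with all libraries and 949 to 1138 over all libraries left out. Library totals gave summed levels of the 7 genes of 3676 CPM with both agents and 117 CPM in control, against 4104 and 102 CPM with TMM. They also gave S100a9 a value of 0.0786 for both agents against control. With library totals the share of rises among calls was 61.4% (48.4% with TMM) for both agents against PgLPS, 41.9% (54.3%) for CS-PA/CNP against control, 21.3% (51.1%) for both agents against control and 63.7% (47.2%) for the interaction. For Ptx3, both agents against control lay at 2.14 to 6.14 over libraries left out, and both agents against PgLPS was called at −1.42 with only these groups. For S100a9, both agents against PgLPS was called at −0.33 by DESeq2 (BH-adjusted p = 0.0383), −0.32 without a filter, −0.32 with only these groups and −0.33 with a replicate block, and lay at −0.39 to −0.25 over libraries left out. The S100a8 interaction was −0.48 to −0.26 over libraries left out and −0.36 with a replicate block (edgeR, BH-adjusted p = 0.0484). The cause of these changes was not tested.

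Same-numbered libraries did not all deviate together: correlations of their deviations were −0.0680 to 0.224, above 0 in 15 of 18 pairs and over 0.1 in 4. In 22 of 36 cases a library correlated best, among 3 candidates, with its own number in another group, a hint of pairing from the data and not from the design. Because the labels give the numbers no shared source and not every pair passed 0.1, the libraries were not paired. The replicate block raised the count of calls in all 5 comparisons, to 7809 for PgLPS against control (7433 without), 2905 for both agents against PgLPS (2268), 2033 for CS-PA/CNP against control (1431), 7166 for both agents against control (6762) and 2403 for the interaction (1841). Depth limits Ptx3 most, with at most 23 reads in a library; with only the compared groups in the fit it was filtered out of both agents against control and of CS-PA/CNP against control, which then have no value.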

Other observations

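The other S100 genes went different ways. Of 13 listed genes 5 were tested; with PgLPS against control S100a10 rose by 0.53 (0.11 and not called with library totals), S100a6 fell by 1.06 and S100a1 fell by 0.48, and 2 were not called (32.2% of all genes rose and 31.6% fell). With both agents against control S100a10 rose by 0.72 (0.36 with library totals). With both agents against PgLPS none of the 5 was called by edgeR or DESeq2, and 1 with library totals. With CS-PA/CNP against control S100a10 rose by 0.30, a call lost without control library 1 or CS-PA/CNP library 3, and 4 were not called.

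Set against control, both agents left 21 of the 25 inducers and transcription factors higher and 2 lower, 8 of the 12 other acute-phase genes higher and 3 lower, 9 of the 18 other antimicrobial genes higher and 1 lower, 12 of the 20 receptors and partners higher and 6 lower, and 6 of the 14 iron handling genes higher and 5 lower, whereas 29.7% of all genes rose and 28.4% fell. The share that was lower among the receptors lay near that of all genes. Among the genes left higher, Saa1, Cfb, Serpina3g, Serpina3f, Orm1, Cxcl9, Wfdc18, Il6 and Csf3 passed the filter only through libraries given PgLPS. They are not read against these shares. With library totals these counts were 7 higher and 5 lower for the antimicrobial genes and 8 and 7 for the receptors. The interaction was called below 0 for 18 and above 0 for 2 of the inducers and transcription factors, Il1b at −5.44 and Socs3 at −3.31 among them, against 8.34% below and 7.46% above 0 among all genes. It was also below 0 for 6 of the antimicrobial genes, with Slpi at −3.80 (−5.92 without control library 1) and Wfdc17 at −1.49.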
